A study of Mus musculus with 12 samples.

Results

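BTBR mice and C57 mice that had both received astragaloside IV (ASIV) were compared by RNA sequencing of the medial prefrontal cortex (mPFC). The comparison uses 6 of the 12 libraries in the series, 3 labelled BTBR+ASIV and 3 labelled C57+ASIV, and asks how far the strains differed while both were on the compound. Of the 17283 genes in the table, 13586 had at least 1 FPKM (fragments per kilobase of exon, scaled to library depth) in 3 or more of the 12 libraries and were tested. The C57 mice carry the genotype label WT and the BTBR mice the label inbred strain. The compound was injected into the peritoneum for 7 days. The other 6 libraries, 3 of each strain given the DMSO solvent (here called vehicle), were used to ask whether a difference under ASIV differed from that under vehicle. The sources used here give no age, sex, dose or C57 substrain. The labels call the 3 samples of a group parallel samples and do not say that they came from separate animals, so p-values measure the spread between these samples, which may be technical.

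As background, the BTBR strain (in its usual form BTBR T+ Itpr3tf/J) serves as a mouse model of autism, with low sociability, repetitive grooming and no corpus callosum, and it differs from C57 mice at many loci across the genome. ASIV is a triterpenoid saponin of Astragalus root. The mPFC is a part of the cortex that takes part in social behaviour. A strain comparison also compares alleles. Reads of BTBR RNA were placed on mm10, a reference made from C57BL/6J, and many mouse genes have processed pseudogenes, intronless copies made by reverse transcription of an mRNA, whose sequence is close to that of the parent gene. Reads from a gene and from a near-identical copy cannot always be told apart, so the copies are shown before the other genes.

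The depth recovered from the FPKM values was 16166328 to 18660039 fragments per library. Snap25, Slc17a7, Tbr1, Cux2, Fezf2 and Gad1, markers of cortical neurons and of the tissue label, were all above 1 FPKM in every library. Libraries of the same group correlated on the log2 scale at r = 0.979 to 0.983 in BTBR ASIV and 0.982 to 0.991 in C57 ASIV, and libraries of different strains under ASIV at 0.965 to 0.983 (across genes, which are not independent replicates). Striatal genes stood apart in single libraries. Adora2a, a receptor of striatal neurons, had 1.42, 1.39 and 12.1 FPKM in C57 ASIV and 13.8, 1.62 and 30.1 in BTBR ASIV. Both strains therefore hold libraries that are high and libraries that are low in this gene. The summed FPKM of the 11 tested striatal markers was 90.3, 91.5 and 315 in C57 ASIV and 283, 82.5 and 529 in BTBR ASIV. Their median strain difference was 0.77 (log2), with all 11 positive, and limma called 0 of them, 0 at an unadjusted p under 0.05 and 0 with voom, a variant of limma that weights recovered counts. Replicate 2 of BTBR ASIV differed from its group in another respect, with 7.36, 29.8 and 2.92 FPKM for the immediate early gene Fos against 16.1, 16.5 and 16.2 in C57 ASIV.

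**Figure D1:**
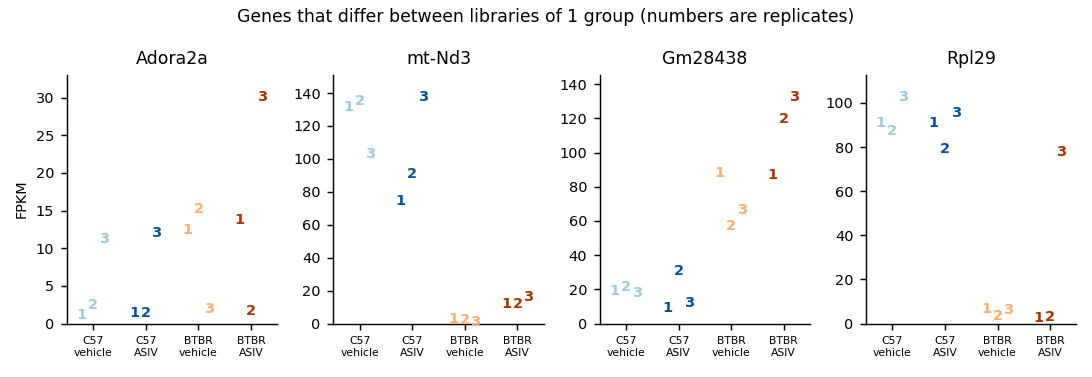
FPKM of 4 genes in the 12 libraries, by group on the x axis, each number being the replicate. Adora2a is high in replicates 1 and 3 of BTBR ASIV and in replicate 3 of C57 ASIV, while mt-Nd3 is lower and Gm28438 higher in all 3 BTBR ASIV libraries than in any C57 ASIV library, and Rpl29 is near the C57 level in 1 BTBR ASIV library only.

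Under ASIV the strains differed at 344 genes, which is 2.53% of the genes tested. BTBR was higher at 178 (1.31%) and lower at 166 (1.22%). A change of at least 2-fold on the log2(FPKM + 1) scale was called at 78 genes (0.574%), 52 higher and 26 lower. The limma test was fitted on all 12 libraries and a gene was called at a Benjamini-Hochberg adjusted p under 0.05. The values of the 3 BTBR and the 3 C57 libraries did not overlap at 3553 genes (26.2% of those tested), which include all 344 called genes. An unadjusted p under 0.05 was found at 2614 of the 13586 genes tested, which is the background for the counts at that threshold given below. Of the called genes, 36 had passed the minimum FPKM through the libraries of 1 strain only, and without them the counts were 160 higher and 148 lower. The number called depended on single libraries. It was 163 without BTBR ASIV replicate 1, 128 without BTBR ASIV replicate 3, 99 without C57 ASIV replicate 2 and 108 without C57 ASIV replicate 3, and 81 of the 344 genes kept their call in all 6 such fits. Without BTBR vehicle replicate 2 or 3, which enter only the estimate of the spread, 643 and 576 genes were called. When the libraries with more than 10 FPKM of Adora2a were left out, 185 genes were called, 113 of them among the 344; this leaves BTBR ASIV with 1 library, which is assumed to vary like the other groups.

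Under vehicle the strains differed at more genes, 5858 called (43.1%). Of the 344 genes called under ASIV, 264 (76.7%) were called in the same direction under vehicle, and these made up 4.51% of the vehicle calls. A further 77 were not called under vehicle and 3 were called in the opposite direction. The test of the difference between the strain difference under ASIV and that under vehicle called 1939 genes (14.3%), 939 with a higher and 1000 with a lower value under ASIV. Rescaling the libraries without the mitochondrial genes turned this split to 1086 and 763. The count was 1218 without C57 ASIV replicate 1, 1248, 1166 and 1255 without C57 vehicle replicate 1, 2 and 3, and 3168 without the libraries high in Adora2a. Of the 1939, 1843 were called under vehicle, and the strain difference was smaller in size under ASIV at 1824 of those. Of the 647 genes called with at least 2-fold under vehicle, 557 were not called under ASIV and the difference itself was called at 414; their median absolute log2 strain difference was 1.23 under vehicle and 0.32 under ASIV. These genes were chosen for their size under vehicle, so a smaller value under ASIV is built in; over all genes tested the medians were 0.288 and 0.144. The vehicle groups also differed in another measure: mitochondrial mRNAs took 0.446% ± 0.17 (SD, n = 3) of the fragments in BTBR vehicle and 4.49% ± 0.16 (n = 3) in C57 vehicle, and the part of this in the vehicle comparison was not tested.

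**Figure D2:**
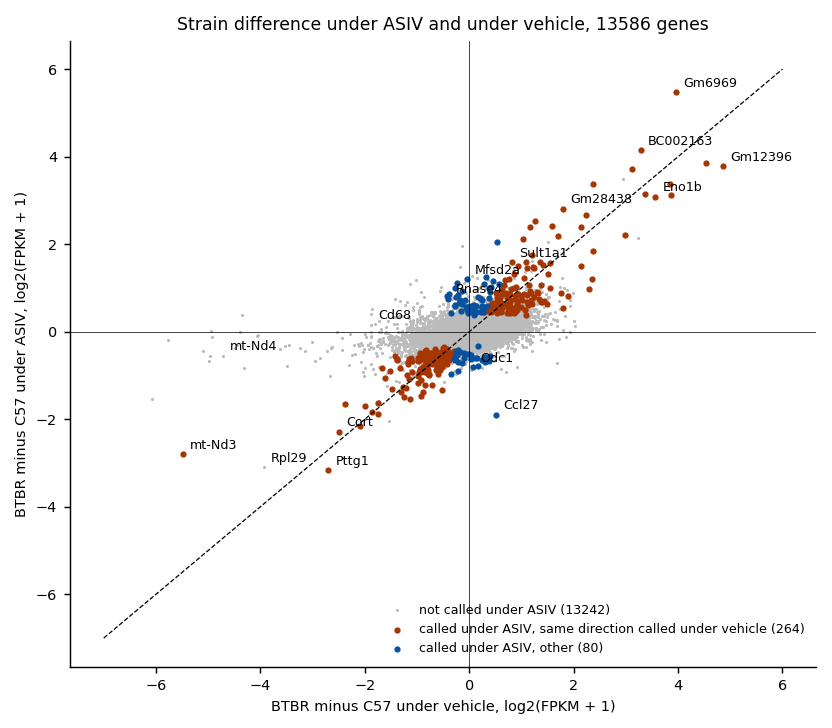
Strain difference (BTBR minus C57, log2(FPKM + 1)) of 13586 genes under vehicle on the x axis and under ASIV on the y axis, with the line of equal differences dashed. The 264 genes called in the same direction in both lie on either side of that line, and the mitochondrial gene mt-Nd4 sits far to the left with a small difference under ASIV.

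Pseudogenes had a higher share of called genes than the other nuclear classes. Of 600 tested pseudogenes 8.33% were called, 37 higher and 13 lower in BTBR, against 2.19% of 12139 protein-coding genes, with 135 higher and 131 lower. Long noncoding genes were called at 3.36% of 655, with 5 higher and 17 lower. The pseudogenes gave 28 of the 52 genes that were at least 2-fold higher. Some of these genes reached 1 FPKM only in libraries of the strain where they are high and so had to differ. Without the genes that passed through 1 strain only, 27 pseudogenes were called higher and 11 lower (6.63% of 573), against 2.08% of 11986 protein-coding genes, and pseudogenes were 19 of 40 genes at least 2-fold higher. By alignment, 516 of the 600 matched a protein-coding transcript at 90% identity or more. Among the 35 matched pseudogenes that were higher in BTBR, the parent gene was called lower at 8 and had a negative difference at 27, with a median parent difference of -0.286 (log2). Among the 10 that were lower in BTBR, 0 parents were called and the parent difference was opposite in sign at 5, with a median of -0.097. Among the 471 matched pseudogenes that were not called, the difference of the parent was opposite in sign at 177. The called pseudogenes were on median 98.9% identical to their parent over the aligned part, and the lowest value was 95.3%.

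In 10 pairs of a gene and its copy the 2 were called in opposite directions, and in all 10 the copy was higher and the parent lower in BTBR. In 8 pairs the copy is a pseudogene. In the 2 pairs of coding genes the member higher in BTBR was taken as the copy. Of these copies, Gm7993, Rbpj-ps3 and Gm1866 passed the minimum FPKM only through BTBR libraries. Stretches of the coding sequence of 5 of these parents are shown with the matching stretch of the copy, because the copies are so close to their parents. Capitals mark the positions within each stretch where the copy and the parent differ, and other differences can lie outside it. All are written 5′ to 3′ in the sense of the parent mRNA, from GENCODE M21 and the build GRCm38 (mm10). In mt-Nd3, a subunit of complex I of the respiratory chain encoded in mitochondrial DNA (positions 9459 to 9518 of the mitochondrial genome, plus strand), and Gm28438, an unprocessed pseudogene at chr1:24613060-24613119 on the minus strand, 1 of 345 aligned bases differed.
mt-Nd3: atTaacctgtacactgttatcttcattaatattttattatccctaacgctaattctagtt
Gm28438: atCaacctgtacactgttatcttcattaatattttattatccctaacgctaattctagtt
In Rbpj, the DNA-binding partner of Notch (exon 9, chr5:53652657-53652716, plus strand), and Rbpj-ps3 (chr6:46529817-46529876, minus strand), 4 of 1441 aligned bases differed.
Rbpj: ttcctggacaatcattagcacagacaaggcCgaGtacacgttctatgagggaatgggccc
Rbpj-ps3: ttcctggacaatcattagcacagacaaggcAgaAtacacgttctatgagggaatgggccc
In Morf4l1, a subunit of histone acetyltransferase complexes (exon 8, chr9:90096503-90096562, minus strand), and Morf4l1-ps1 (chr16:24529874-24529933, plus strand), 2 of 969 aligned bases differed.
Morf4l1: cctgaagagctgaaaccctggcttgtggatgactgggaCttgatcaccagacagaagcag
Morf4l1-ps1: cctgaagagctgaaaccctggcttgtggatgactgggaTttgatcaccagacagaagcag
In Psmb5, a catalytic subunit of the proteasome (exon 2, chr14:54616694-54616753, minus strand), and Gm3375 (chr7:3181360-3181419, plus strand), 8 of 796 aligned bases differed and 1 more was a gap.
Psmb5: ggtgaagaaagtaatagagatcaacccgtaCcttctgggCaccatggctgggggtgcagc
Gm3375: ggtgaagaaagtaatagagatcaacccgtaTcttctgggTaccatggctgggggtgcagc
In Psenen, a subunit of the gamma-secretase complex (exon 2, chr7:30562797-30562856, minus strand), and Gm12396 (chr4:40775505-40775564, minus strand), 0 of 306 aligned bases differed, so the copy stretch is the same as that of the parent.
Psenen: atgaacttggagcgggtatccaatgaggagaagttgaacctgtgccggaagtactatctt
Gm12396: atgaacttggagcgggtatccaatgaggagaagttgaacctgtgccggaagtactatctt

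In this and the following paragraphs the 3 values before the word against are FPKM of C57 ASIV replicates 1 to 3 and those after it of BTBR ASIV replicates 1 to 3, unless vehicle is named, and the parentheses give the log2 difference of BTBR minus C57 with its standard error (SE). The pairs were chosen for members called in opposite directions, and the ratio of a sum lies between those of its 2 members. A smaller difference of the sum is therefore in part built in. For mt-Nd3 the C57 ASIV libraries had 74.5, 90.7 and 138 FPKM and the BTBR ASIV libraries 12.01, 11.8 and 16, a difference of -2.803 (SE 0.26) with an adjusted p = 1.2e-04. Its copy Gm28438 had 8.803, 30.7 and 12.3 FPKM in C57 ASIV and 86.98, 119.9 and 132 in BTBR ASIV (2.81, SE 0.35, adjusted p = 0.0020). In CPM, the fragments of a gene scaled to the depth of its library but not to its length, the sum of the 2 was 40.6 ± 10.4 (SD, n = 3) in C57 and 43.7 ± 8.15 (n = 3) in BTBR, a ratio of 1.08, and the ranges of the strains overlapped.

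Psmb5 and Gm3375 gave the same picture. Psmb5 had 80.9, 76.4 and 102 FPKM in C57 ASIV against 43.2, 45.3 and 66.3 in BTBR ASIV (-0.75, SE 0.16, adjusted p = 0.026), and Gm3375 had 1.23, 2.67 and 1.95 against 49.9, 50.1 and 26.9 (3.85, SE 0.25, adjusted p = 4.8e-06). Their sum was 78.6 ± 9.87 CPM in C57 and 80.3 ± 0.570 in BTBR (SD, n = 3 each). For Eif3j1, a translation initiation factor subunit, and Eif3j2, a coding copy of it, the ratio of the sums was 0.977 of BTBR over C57, while Eif3j1 had 4.59, 5.62 and 5.04 FPKM against 2.29, 2.21 and 1.82 (-0.97, SE 0.17, adjusted p = 0.011) and Eif3j2 had 1.003, 0.517 and 1.25 against 6.11, 8.96 and 8.32 (2.197, SE 0.32, adjusted p = 0.0045). For Odc1, the rate-limiting enzyme of polyamine synthesis, and Gm7993 the ranges of the sums overlapped as well, at a ratio of 0.782.

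In the other 6 pairs the sum was lower in every BTBR ASIV library than in any C57 ASIV library. The ratio of BTBR over C57 was 0.849 for Psenen with Gm12396, 0.681 for Mrpl48 with Mrpl48-ps, 0.662 for Morf4l1 with Morf4l1-ps1, 0.624 for Rbpj with Rbpj-ps3, 0.587 for Eno1 with Eno1b and 0.300 for Acp1 with Gm1866. Eno1, the glycolytic enzyme enolase, had 166, 164 and 195 FPKM in C57 ASIV and 69.4, 74.7 and 69.5 in BTBR ASIV (-1.28, SE 0.09, adjusted p = 5.3e-06), and Eno1b, an intronless coding copy, had 8.46, 10.6 and 11.4 against 88.3, 96.8 and 94.4 (3.09, SE 0.11, adjusted p = 1.2e-08). The sum of Eno1 with Eno1b leaves out the pseudogene Gm4735, which is 99.8% identical to Eno1b over 1302 aligned bases. Gm4735 had a mean of 6.95 FPKM in C57 ASIV and 104 in BTBR ASIV (3.73, SE 0.21, adjusted p = 1.3e-06). The ratio of 0.587 therefore does not cover all called enolase copies. Acp1, a low molecular weight phosphotyrosine phosphatase, had 13.5, 14.04 and 16.7 against 4.23, 4.06 and 3.88 (-1.63, SE 0.10, adjusted p = 1.5e-06), and its copy added little, at 0.114, 0.469 and 0.125 FPKM in C57 and 2.503, 3.24 and 1.7 in BTBR. Rbpj had 2.37, 2.61 and 2.09 FPKM against 0.936, 1.14 and 1.17 (-0.69, SE 0.10) and Rbpj-ps3 had 0.301, 0.311 and 0.413 against 3.31, 4.45 and 2.96 (1.76, SE 0.14). How much of either member's value comes from reads of the other was not tested, and the levels of all such genes are uncertain. The Gm and -ps genes and several of the parents in these paragraphs were chosen after their values were seen. In 5 of the 10 pairs a member lost its call without 1 library. Without C57 ASIV replicate 3 the adjusted p was 0.11 for Psmb5, 0.17 for Morf4l1, 0.075 for Mrpl48, 0.096 for Mrpl48-ps and 0.11 for Gm1866, and without C57 ASIV replicate 2 it was 0.089 for Morf4l1-ps1 and 0.067 for Eif3j1.

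**Figure D3:**
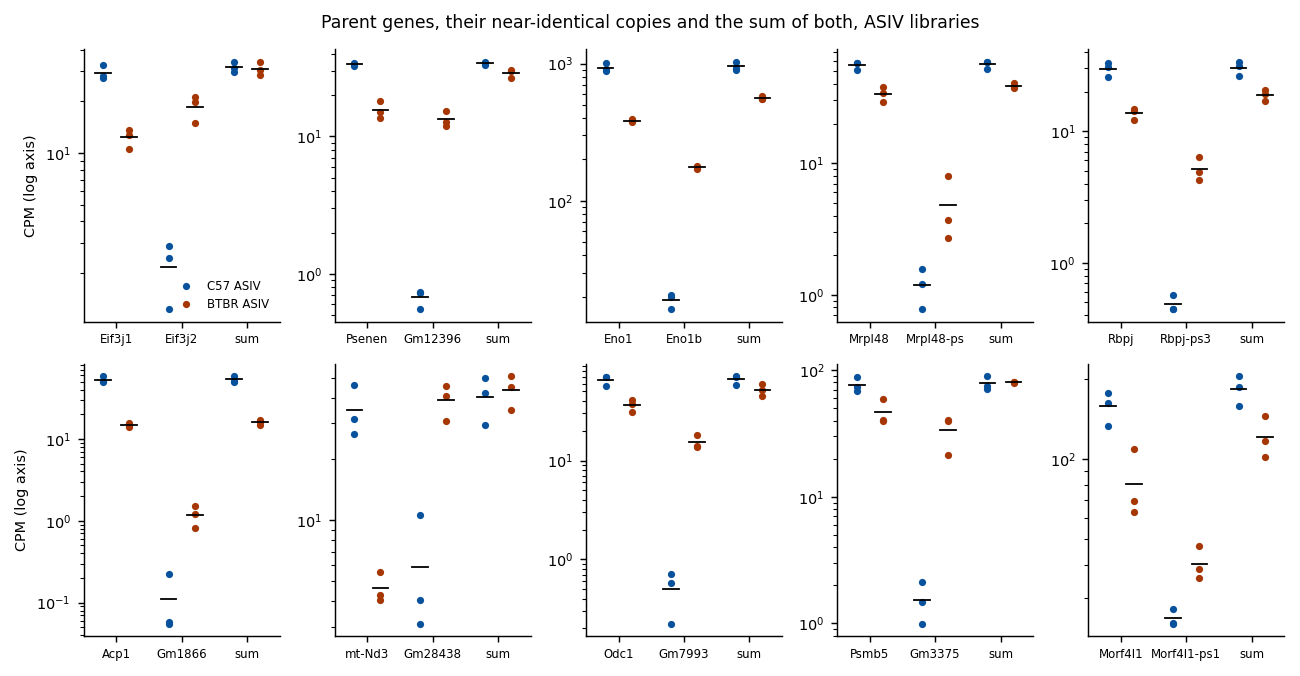
CPM (fragments scaled to the summed fragments of the library, log axis) of 10 parent genes, their copies and the sum of both in the 3 C57 ASIV (blue) and 3 BTBR ASIV (brown) libraries, with the group mean as a bar. In each panel the parent is lower and the copy higher in BTBR, and the ratio of the sums runs from 0.300 for Acp1 with Gm1866 to 1.08 for mt-Nd3 with Gm28438.

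Other copies were called higher in BTBR without a called parent. The largest difference of all was at Gm6969, a processed pseudogene of Cox7a2l, a factor of respiratory supercomplex assembly, with 2.38, 2.45 and 1.22 FPKM in C57 ASIV and 137, 112 and 146 in BTBR ASIV (5.48, SE 0.20, adjusted p = 1.3e-08). Cox7a2l had 104, 98.1 and 119 against 92.96, 90.1 and 115, overlapping values (-0.11, SE 0.12, adjusted p = 0.64). BC002163, a copy of the complex I subunit Ndufs5, had 3.91, 2.98 and 4.11 against 62.6, 67.5 and 126 (4.15, SE 0.25, adjusted p = 2.7e-06), and Ndufs5 itself 61.2, 69.5 and 83.6 against 38.6, 41.7 and 15.7 (-1.24, SE 0.34, adjusted p = 0.086). Amd2, a coding copy of the polyamine enzyme Amd1 that reached 1 FPKM only in BTBR libraries, had 0.826, 0.695 and 0.981 against 3.93, 6.39 and 6.89 (1.85, SE 0.16, adjusted p = 3.7e-05), with Amd1 at 27.3, 28.2 and 30.5 against 24.7, 32.5 and 28.9. For the ribosomal protein gene Rpl29, BTBR replicate 3 was unlike the other 2, at 2.699, 2.85 and 77.7 FPKM in BTBR ASIV and 90.9, 79 and 95.3 in C57 ASIV (-3.102, SE 0.96, adjusted p = 0.13), and its pseudogene Gm13841 had 125, 103 and 79.8 against 16.6, 19.2 and 19.9 (2.39, SE 0.16, adjusted p = 2.9e-06).

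Among nuclear protein-coding genes the largest difference downwards was at Pttg1 (chr11:43420250-43426251), which encodes securin, the inhibitor of separase. Pttg1 had 10.01, 10.1 and 11.8 FPKM in the C57 ASIV libraries and 0.326, 0.221 and 0.324 in the BTBR ASIV libraries, a difference of -3.17 (SE 0.12) with an adjusted p = 1.2e-08; it was -2.697 under vehicle. The strains were far apart and the spread within each was small. Pttg1, Myo7a and Krt12 reached 1 FPKM only in C57 libraries and so entered the test through the strain where they are high. Cort (chr4:149125034-149126763), the neuropeptide cortistatin of cortical interneurons, had 8.57, 11.8 and 15.9 FPKM in C57 ASIV and 1.202, 1.63 and 2.08 in BTBR ASIV (-2.29, SE 0.25, adjusted p = 4.0e-04). Myo7a (chr7:98051060-98119524), an unconventional myosin known from hair cells, had 2.62, 2.51 and 1.89 against 0.418, 0.252 and 0.354 (-1.31, SE 0.12, adjusted p = 4.6e-05). Krt12, a keratin of the cornea, had 2.28, 3.08 and 3.28 against 0.293, 0.239 and 0.438 (-1.55, SE 0.13, adjusted p = 2.7e-05).

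Other coding genes lower in BTBR were at moderate levels in C57. Hnrnpa3, an RNA-binding protein, had 15.2, 17.2 and 17.96 FPKM in C57 ASIV and 4.93, 6.98 and 5.67 in BTBR ASIV (-1.38, SE 0.22, adjusted p = 0.0080). Nudt19, a hydrolase of coenzyme A, had 24.6, 23.1 and 24.9 against 8.42, 9.83 and 11.4 (-1.22, SE 0.10, adjusted p = 1.3e-05). Ublcp1, a phosphatase that acts on the proteasome, had 10.8, 12.4 and 13.4 against 4.89, 4.59 and 4.94 (-1.18, SE 0.15, adjusted p = 7.7e-04). Myoc, the secreted protein myocilin, had 5.33, 6.99 and 4.22 against 1.57, 0.559 and 1.095 (-1.66, SE 0.29, adjusted p = 0.014). The remaining genes of this group were Gkn3 (-1.39, SE 0.24, adjusted p = 0.011) and the chemokine gene Ccl27 (-1.897, SE 0.38, adjusted p = 0.027), whose C57 ASIV libraries spread from 3.49 to 11.5 FPKM and which has paralogues, so that its level is uncertain. Without 1 library the call was lost at Myoc (adjusted p up to 0.068), Gkn3 (0.064) and Ccl27 (0.10), the first 2 without C57 ASIV replicate 2 and Ccl27 without BTBR ASIV replicate 3.

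The largest differences upwards at coding genes that are no copy named above were at Sult1a1, Etnppl, Pla2g4e, Acer2, Mroh7, Scrg1, Hif3a, Scg5 and Lfng. Pla2g4e (chr2:120166412-120245335), a cytosolic phospholipase A2 family enzyme that makes N-acyl phosphatidylethanolamines, had 1.32, 1.21 and 1.01 FPKM in C57 ASIV and 6.46, 4.45 and 5.09 in BTBR ASIV (1.53, SE 0.18, adjusted p = 6.3e-04). Scrg1 (chr8:57455923-57477585), a small secreted protein first found in scrapie-infected brain, had 16.5, 15.2 and 15.7 against 38.8, 39.5 and 44.3 (1.32, SE 0.13, adjusted p = 1.4e-04). Scg5 (chr2:113776362-113829121), the 7B2 chaperone of a prohormone convertase, was the most abundant of them, at 78.2, 84.6 and 106 against 205, 226 and 198 (1.23, SE 0.14, adjusted p = 4.0e-04). These 3 kept their calls without each ASIV library in turn.

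The other genes of this group varied more within BTBR, and of them Mroh7 and Hif3a reached 1 FPKM only in BTBR libraries. Sult1a1, a phenol sulfotransferase, had 3.31, 2.56 and 3.202 FPKM in C57 ASIV and 11.6, 7.92 and 14.8 in BTBR ASIV (1.59, SE 0.29, adjusted p = 0.018). Etnppl, an astrocyte enzyme that breaks down phosphoethanolamine, had 2.38, 2.37 and 1.97 against 9.41, 6.104 and 11.4 (1.59, SE 0.35, adjusted p = 0.041). Acer2, a ceramidase of the Golgi, had 2.08, 1.68 and 1.05 against 4.53, 5.301 and 10.1 (1.504, SE 0.25, adjusted p = 0.011). Hif3a, a subunit of the hypoxia-inducible factors, had 0.727, 0.609 and 0.506 against 4.59, 1.97 and 2.43 (1.26, SE 0.26, adjusted p = 0.029). Lfng, a glycosyltransferase that modifies Notch, had 10.4, 9.29 and 8.16 against 25.6, 18.4 and 25.02 (1.22, SE 0.27, adjusted p = 0.037), and Mroh7 had 0.893, 0.571 and 0.596 against 3.63, 2.53 and 4.96 (1.45, SE 0.26). BTBR replicate 2 was the lowest of its group at Sult1a1, Etnppl, Mroh7, Hif3a and Lfng, and it was also the library low in striatal genes; with the high-Adora2a libraries left out, the differences were 1.19, 1.08, 1.03, 0.83 and 0.84. Leaving out 1 ASIV library ended the calls of these 6 genes, with the highest adjusted p at 0.081 for Sult1a1 and 0.068 for Mroh7 (without C57 ASIV replicate 2), 0.15 for Etnppl (without BTBR ASIV replicate 3), and 0.056 for Acer2, 0.11 for Hif3a and 0.13 for Lfng (without C57 ASIV replicate 3).

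**Figure D4:**
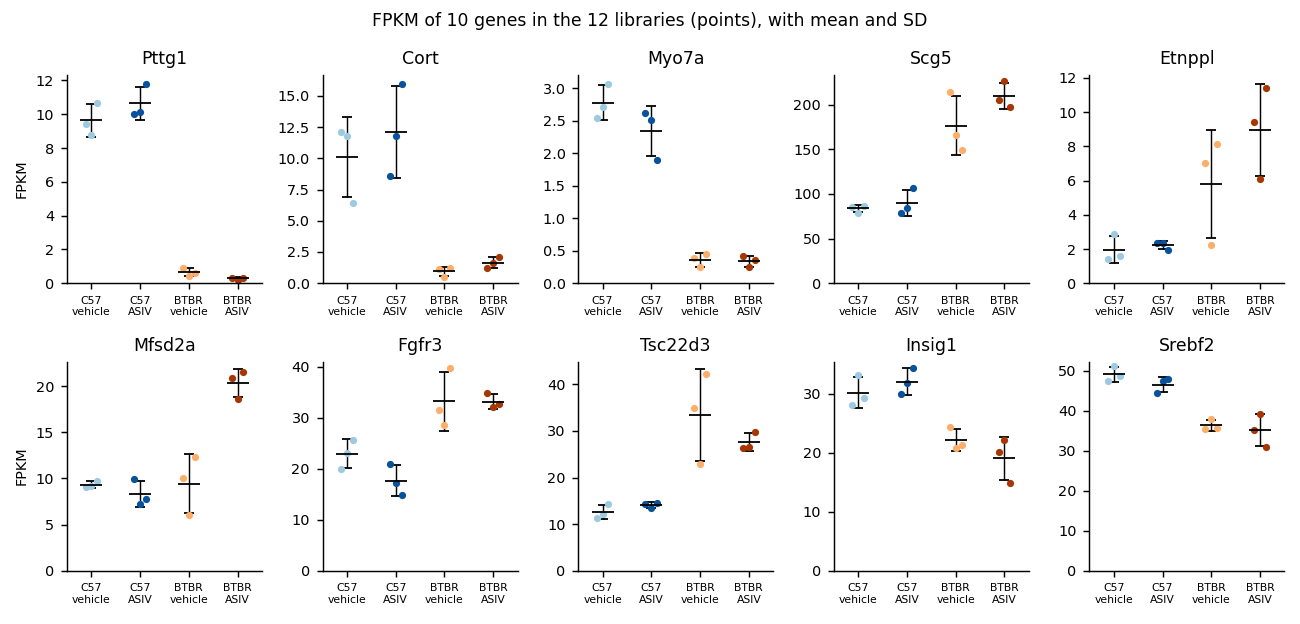
FPKM (y axis, from 0) of 10 genes in the 12 libraries by group (x axis), with points for libraries and bars for the mean ± SD (n = 3). The values of the 3 BTBR ASIV and the 3 C57 ASIV libraries do not overlap in any panel, and Mfsd2a is at the C57 level in the BTBR vehicle libraries.

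Some astrocyte markers were higher in BTBR under ASIV: 3 of 16 tested were called higher, against 1.31% of all genes tested, and 0 lower, with a list median of 0.31 (log2) against -0.003 over all genes tested. Under vehicle 5 of the 16 were called higher and 4 lower, with a list median of -0.01. The 3 called under ASIV, Fgfr3, Gjb6 and Glul, were also called higher under vehicle (0.51, 0.90 and 0.43). At these 3 the difference between the strain differences was not called. In bulk tissue, more or fewer cells of a type and more or less RNA per cell cannot be told apart. Fgfr3, a growth factor receptor of astrocytes, had 20.96, 17.2 and 14.8 FPKM in C57 ASIV and 34.7, 32.04 and 32.6 in BTBR ASIV (0.88, SE 0.14, adjusted p = 0.0069). Gjb6, the gap junction protein connexin 30, had 19.5, 17.8 and 14.95 against 33.5, 34.8 and 40.2 (1.02, SE 0.20, adjusted p = 0.022). Glul, glutamine synthetase, had 560.3, 506 and 484 against 701, 708 and 723 (0.46, SE 0.11, adjusted p = 0.038). Other markers did not pass the test, among them Gja1 with 20.3, 20.5 and 18.7 against 23.8, 24.4 and 28.8 (0.35, SE 0.13, adjusted p = 0.17) and the glutamate transporter Slc1a3 with 94.8, 83.4 and 67.9 against 83.7, 88.1 and 94.9, which overlapped. Without 1 ASIV library the count of called markers fell to 1 at the lowest (without BTBR ASIV replicate 1 or 3, or C57 ASIV replicate 2 or 3), and it was 1 without the libraries high in Adora2a. Apoe, the main apolipoprotein of astrocytes, was chosen after its values were seen; it had 925, 703 and 720.4 FPKM in C57 ASIV and 1309, 1212 and 1510 in BTBR ASIV (0.78, SE 0.16, adjusted p = 0.024), and its call was lost without C57 ASIV replicate 2 (adjusted p = 0.12).

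Of 13 tested glucocorticoid-responsive genes 2 were called higher, against 1.31% of all genes tested, and 0 lower, with a median of 0.56. They were Sult1a1, given above, and Tsc22d3, which encodes the glucocorticoid-induced leucine zipper, with 14.3, 13.4 and 14.5 FPKM in C57 ASIV and 26.2, 26.6 and 29.8 in BTBR ASIV (0.92, SE 0.17, adjusted p = 0.016). Fkbp5, a co-chaperone of the glucocorticoid receptor, had 2.78, 2.6 and 3.29 against 8.43, 4.901 and 7.69 (1.02, SE 0.27, adjusted p = 0.072), and the kinase gene Sgk1 had 13.4, 12.9 and 14.8 against 33.1, 18.6 and 33.04 (0.95, SE 0.35, adjusted p = 0.18). The strains did not overlap at either gene, a trait that 26.2% of all genes tested had. The receptor itself, Nr3c1, had 14.7, 15.5 and 14.7 against 10.5, 12.9 and 11.4 (-0.34, SE 0.11, adjusted p = 0.12). The count was 0 without BTBR ASIV replicate 3 or without C57 ASIV replicate 2 or 3, and the strain difference of Sgk1 was 0.94 under vehicle.

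Of 17 tested endothelial and mural markers 1 was called higher, against 1.31% of all genes tested, and 0 lower, with a median of 0.06, 10 positive and 7 negative differences. It was Slc2a1, the glucose transporter GLUT1 of brain endothelium and astrocytes, with 39.4, 33.1 and 31.5 FPKM in C57 ASIV and 71.7, 63.9 and 75.7 in BTBR ASIV (1.01, SE 0.21, adjusted p = 0.028). Mfsd2a, the endothelial transporter that carries lysophospholipids with docosahexaenoic acid into the brain, had 9.95, 7.26 and 7.76 against 20.9, 18.6 and 21.5 (1.203, SE 0.19, adjusted p = 0.0061). Single genes chosen after their values were seen, which stand for no list, were Pdk4, a kinase that restrains pyruvate dehydrogenase (3.599, 3.16 and 2.58 against 7.26, 5.19 and 12.2, difference 1.101, SE 0.21, adjusted p = 0.018), Angptl4, an inhibitor of lipoprotein lipase (0.792, 0.528 and 0.598 against 3.11, 1.33 and 4.13, difference 1.16, SE 0.28, adjusted p = 0.048), and Ucp2, a mitochondrial carrier (3.18, 2.802 and 2.85 against 7.62, 5.56 and 7.66, difference 1, SE 0.21, adjusted p = 0.028). Mfsd2a kept its call without each ASIV library in turn; Slc2a1 (adjusted p up to 0.12), Angptl4 (0.17) and Ucp2 (0.12) lost it without C57 ASIV replicate 2, and Pdk4 (0.091) without C57 ASIV replicate 3.

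Some genes of cholesterol synthesis were lower in BTBR under ASIV. These genes are driven by the transcription factor SREBP-2, which sterols hold back through INSIG proteins, and the list covers the factor, its regulators and the enzymes from acetyl-CoA to cholesterol. Of 20 tested, 5 were called lower, against 1.22% of all genes tested, and 0 higher, the list median was -0.49, and 19 had a negative difference. Under vehicle 8 of the 20 were called lower and 1 higher, with a list median of -0.21. The difference between the strain differences was called at 4 of the 20, all lower under ASIV, with a list median of -0.16. Among the regulators, Srebf2, which encodes SREBP-2, had 44.3, 47.4 and 47.9 FPKM in C57 ASIV and 35.1, 39.1 and 31.1 in BTBR ASIV (-0.40, SE 0.09, adjusted p = 0.039). Insig1, a target and a brake of the pathway, had 29.95, 31.8 and 34.4 against 20.1, 22.1 and 14.9 (-0.74, SE 0.13, adjusted p = 0.012).

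Among the enzymes, Nsdhl, which removes the methyl groups at the C4 carbon, had 5.68, 6.69 and 7.14 FPKM in C57 ASIV and 3.99, 4.12 and 3.49 in BTBR ASIV (-0.62, SE 0.12, adjusted p = 0.018). Hmgcs1, which makes HMG-CoA, had 51.95, 58.5 and 59.2 against 28.4, 41.8 and 26.3 and just missed the threshold (-0.82, SE 0.20, adjusted p = 0.051). Sqle, squalene epoxidase, had 11.7, 12.7 and 14.4 against 9.197, 9.89 and 7.04 (-0.53, SE 0.14, adjusted p = 0.077). At each of these 3 enzymes all 3 BTBR libraries lay below all 3 C57 libraries, a lack of overlap in either direction that 26.2% of all genes tested had. At Hmgcs1, Fdft1 and Msmo1 the strain difference itself differed from that under vehicle, by -1.06 (SE 0.28), -0.72 (SE 0.17) and -0.76 (SE 0.21) with adjusted p = 0.027, 0.015 and 0.032; under vehicle these genes had differences of 0.24, 0.26 and 0.23. The count of called members was 0 without C57 ASIV replicate 2 or 3 and up to 10 in the other single-library fits, and it was 0 without the libraries high in Adora2a. In that fit the differences were -0.47 for Insig1, -0.23 for Srebf2 and -0.39 for Hmgcs1, so their size moved with these libraries, whose part in the result was not tested.

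**Figure D5:**
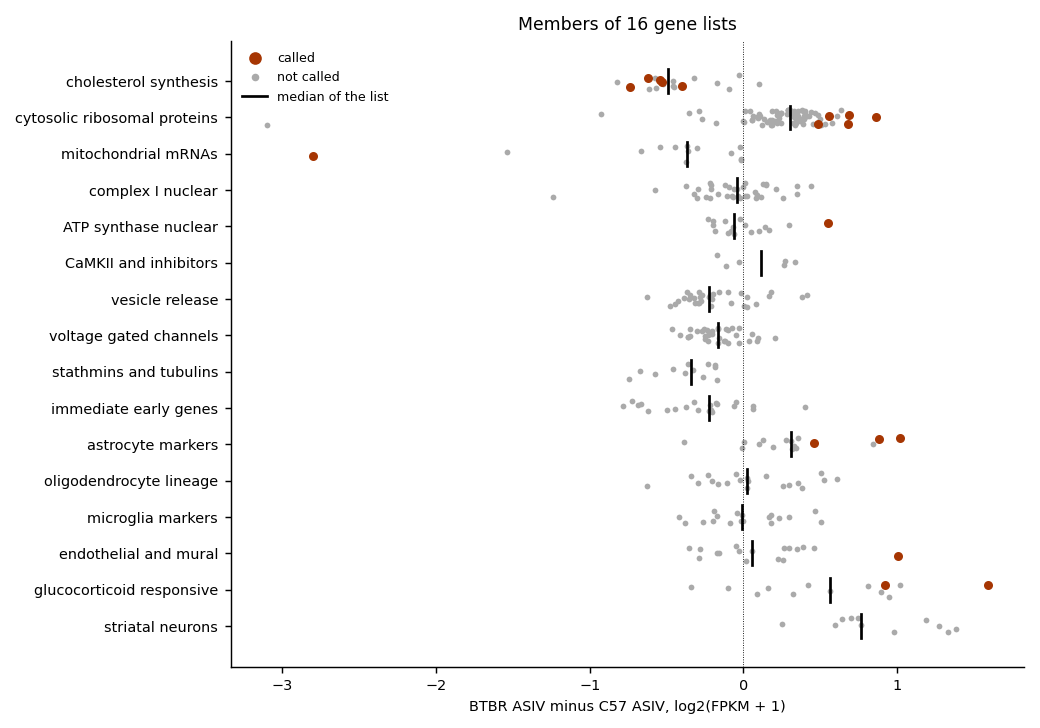
Strain difference under ASIV (BTBR minus C57, log2(FPKM + 1), x axis) of the tested members of 16 gene lists (y axis), with called genes in brown, other genes in grey and the list median as a bar. The cholesterol list has its median at -0.49 and the glucocorticoid-responsive and striatal lists lie to the right, the striatal one with no called member.

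Cytosolic ribosomal protein genes leaned the other way. Of 81 tested, 5 were called higher, against 1.31% of all genes tested, and 0 lower, the median was 0.30, and 75 had a positive difference. Rplp1, of the stalk of the large subunit, had 854, 783 and 948 FPKM in C57 ASIV and 1598, 1336 and 1784 in BTBR ASIV (0.86, SE 0.14, adjusted p = 0.0094). Rps20 of the small subunit had 29.4, 26.3 and 32.7 against 45.7, 41.4 and 57.8 (0.69, SE 0.14, adjusted p = 0.025). Rpl37a, Rpl11 and Rps21 had differences of 0.68 (SE 0.13), 0.49 (SE 0.12) and 0.56 (SE 0.13). Under vehicle the same list held 28 genes called higher and 23 lower. Ribosomal protein genes have many pseudogenes, so that their levels are uncertain, and the count without a single library ran from 0 (without C57 ASIV replicate 2) to 8.

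Mitochondrially encoded mRNAs took 3.02%, 4.25% and 4.54% of the fragments in C57 ASIV and 3.18%, 3.00% and 3.22% in BTBR ASIV. The means were 3.94% ± 0.807 and 3.13% ± 0.119 (SD, n = 3 each), a difference of -0.801 percentage points (exact two-sided permutation test, p = 0.3, where the smallest possible value is 0.1). The ranges overlapped. Of the 13 mitochondrial mRNAs only mt-Nd3 was called, the gene with the near-identical copy on chromosome 1, and the list median was -0.37. mt-Nd4, another complex I subunit, had 977, 2012 and 2465 FPKM in C57 ASIV and 1222, 1080 and 1186 in BTBR ASIV (-0.54, SE 0.27, adjusted p = 0.29), and mt-Cytb of complex III had 3995, 6122 and 7318 against 4408, 4173 and 4582 (-0.36, SE 0.27, adjusted p = 0.48). Replicate 1 of C57 ASIV was the lowest C57 library at both. The ribosomal RNAs of the mitochondrion were not called, with 0.36 (SE 0.23) for mt-Rnr1 and 0.44 (SE 0.20) for mt-Rnr2.

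Of the nuclear genes of oxidative phosphorylation, 0 of 37 complex I genes, 0 of 14 genes of complexes II and III and 0 of 14 complex IV genes were called by limma, with medians of -0.04, -0.01 and -0.08. At an unadjusted p under 0.05 there were 9, 2 and 2, and voom called 0 in each list. Of 17 ATP synthase genes 1 was called, Atp5e, a small subunit, with 61.9, 44.4 and 53.3 FPKM in C57 ASIV and 73.7, 74.4 and 85.4 in BTBR ASIV (0.55, SE 0.13, adjusted p = 0.043); under vehicle its difference was 1.79. Tefm, the elongation factor of mitochondrial transcription, was called among 17 expression factors of the mitochondrion, with 2.35, 1.71 and 2.05 against 2.83, 3.17 and 3.27 (0.43, SE 0.10, adjusted p = 0.047). Both calls were lost without C57 ASIV replicate 2, with adjusted p = 0.19 and 0.21. In glycolysis 1 of 18 genes was called, Eno1, which belongs to the copy pairs above. Over all genes tested the share of called genes was 2.53%. Mfn2, which fuses mitochondria, was chosen after its values were seen and had 45.2, 47.3 and 47.7 against 31.5, 33.1 and 30.5 (-0.55, SE 0.10, adjusted p = 0.014), with a call lost without C57 ASIV replicate 2 (adjusted p = 0.068).

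The CaMKII genes, whose inhibitor Camk2n2 is named in the title of the series, did not pass the test: limma called 0 of 6 genes of the kinase and its inhibitors, 2 had an unadjusted p under 0.05 and voom called 0. Camk2n2 had 151, 116 and 117 FPKM in C57 ASIV and 144, 148 and 168 in BTBR ASIV, overlapping values with a difference of 0.26 (SE 0.18) and an adjusted p = 0.43. Camk2n1, the related inhibitor, had 657, 562 and 569 against 668, 834 and 762 (0.34, SE 0.14, adjusted p = 0.21). Camk2a, the main kinase subunit of forebrain neurons, had 484, 502 and 399 against 531, 553 and 583 (0.27, SE 0.12, adjusted p = 0.22), and Camk2b had 102, 97.9 and 98.5 against 95.8, 98.4 and 98.1 (-0.03, SE 0.10). The strain difference of Camk2a was -0.66 under vehicle, and the 2 differences differed by 0.93 (SE 0.16, adjusted p = 0.0046).

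Synaptic and excitability lists had small shifts and few calls, beside a share of 2.53% called over all genes tested. Of 33 vesicle release genes limma called 0 and voom 2, 13 had an unadjusted p under 0.05, and the median was -0.22. Snap25, a SNARE protein, had 229.9, 303 and 356 FPKM in C57 ASIV and 194, 209 and 164 in BTBR ASIV (-0.63, SE 0.17, adjusted p = 0.072), and Syt1, the calcium sensor of release, had 166, 186 and 199 against 122, 145 and 128 (-0.48, SE 0.13, adjusted p = 0.075). Of 35 voltage-gated channels and of 22 glutamate receptors limma and voom called 0, 7 and 6 had an unadjusted p under 0.05, and the medians were -0.17 and -0.12. Gabra5, the alpha5 subunit of extrasynaptic GABA-A receptors, was the 1 called gene of 20 in GABA signalling, with 20.02, 25.9 and 22.4 against 12.9, 16.2 and 13.6 (-0.64, SE 0.12, adjusted p = 0.017). Shank3, a scaffold of the postsynaptic density and an autism risk gene, was the 1 called gene in the lists of both, which have 25 and 34 tested members, with 42.4, 39.5 and 28.8 against 53.8, 52.4 and 57.5 (0.57, SE 0.13, adjusted p = 0.038).

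Of the neuropeptide genes Cort was lower, as given above, and Tac2, which encodes neurokinin B, was higher, with 4.41, 4.91 and 4.41 FPKM in C57 ASIV and 6.77, 7.34 and 9.14 in BTBR ASIV (0.64, SE 0.10, adjusted p = 0.0053). Of 6 tested genes of olfactory bulb and immature neurons 2 were called higher, against 1.31% of all genes tested, and 0 lower. The list median was 0.23, with 4 positive and 2 negative differences that ran from -0.86 to 1.08. Sox11, a factor of immature neurons, had 2.47, 2.302 and 2.22 against 6.35, 4.71 and 6.21 (1.01, SE 0.12, adjusted p = 5.2e-04), and Igfbpl1 of the same list had 2.09, 1.52 and 1.595 against 6.28, 2.75 and 5.96 (1.08, SE 0.24, adjusted p = 0.038). Mapt, which encodes tau, was chosen after its values were seen and had 54.2, 63.7 and 65.9 against 49.5, 46.5 and 42.5 (-0.40, SE 0.10, adjusted p = 0.047). Tac2 and Sox11 kept their calls without each ASIV library in turn. The call of Gabra5 was lost without C57 ASIV replicate 2 (adjusted p up to 0.089), as were those of Igfbpl1 (0.15) and Mapt (0.19), and that of Shank3 (0.14) without BTBR ASIV replicate 3.

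Immediate early genes, which rise with recent neuronal activity, had a median of -0.23 over 21 genes and 0 calls with limma or voom, with 1 at an unadjusted p under 0.05. Fos, chosen after its values were seen, had 7.36, 29.8 and 2.92 FPKM in BTBR ASIV and 16.1, 16.5 and 16.2 in C57 ASIV, and Egr1 had 38.7, 77.7 and 18.1 in BTBR ASIV and 55.3, 72.9 and 56.3 in C57 ASIV. BTBR replicate 2 was above every C57 library at both genes and the other BTBR libraries were below. Without that library, 9 of the 21 were called lower, while without the libraries high in Adora2a, which leaves that library as the only one of BTBR ASIV, 3 were called higher. Microglial markers (18 genes, median -0.01) and oligodendrocyte genes (20 genes, median 0.02) had 0 calls with limma or voom, and 5 and 3 of them had an unadjusted p under 0.05. Cytoskeletal stathmins and tubulins had 0 calls of 12 with a median of -0.34, 7 at an unadjusted p under 0.05 and 1 call with voom, and the vacuolar proton pump had 0 of 17 with a median of -0.25, 6 at an unadjusted p under 0.05 and 0 with voom. Of 31 proteasome genes 1 was called lower, Psmb5, which belongs to the copy pairs above, and of 34 core spliceosome genes 2, Snrpd1 and Snrpd3. Of all genes tested 1.22% were called lower.

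The genes with a called difference between the strain differences were mostly ones where the strains were apart under vehicle and close under ASIV. Cd68, a lysosomal protein of microglia, had 5.16, 5.47 and 6.36 FPKM in C57 vehicle and 0.923, 0.512 and 0.984 in BTBR vehicle, but 3.15, 4.05 and 4.64 in C57 ASIV and 3.93, 4.04 and 5.68 in BTBR ASIV (difference of the differences 2.05, SE 0.22, adjusted p = 5.2e-04). Syn1, a synaptic vesicle protein, had 251, 233 and 222 against 72.7, 65.8 and 68.03 under vehicle but 189, 228 and 231 against 181, 182 and 154 under ASIV (1.44, SE 0.15, adjusted p = 5.1e-04). P2ry12, a receptor of resting microglia, had 16.6, 14.4 and 16.7 against 5.19, 3.29 and 2.65 under vehicle but 13.04, 12.8 and 14.5 against 11.9, 13.5 and 14.9 under ASIV (1.87, SE 0.23, adjusted p = 7.6e-04). Msrb2, a mitochondrial methionine sulfoxide reductase, went the other way, with 12.2, 11.97 and 11.7 against 26.5, 24.5 and 24.5 under vehicle but 12.4, 11.6 and 11.9 against 10.7, 12.1 and 11.9 under ASIV (-1.07, SE 0.11, adjusted p = 5.1e-04).

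Fewer genes were apart under ASIV and close under vehicle. Mfsd2a, given above, had a strain difference of -0.03 under vehicle, and the difference of the differences was 1.24 (SE 0.27, adjusted p = 0.011). Odc1 had 17.1, 18.8 and 17.8 FPKM in C57 vehicle and 17.3, 21.1 and 18.4 in BTBR vehicle, but 20.3, 16.9 and 21.2 against 8.89, 11.2 and 12.2 under ASIV (-0.88, SE 0.17, adjusted p = 0.0069); its copy Gm7993 was higher in BTBR in both settings. Ncald, a neuronal calcium sensor, had 70.8, 77.1 and 90.8 in C57 ASIV and 50.8, 58.7 and 44.2 in BTBR ASIV (-0.63, SE 0.13) and a difference of 0.03 under vehicle. Fas, a death receptor that reached 1 FPKM only in BTBR libraries, had 0.813, 0.559 and 0.595 against 1.48, 1.63 and 2.101 (0.72, SE 0.15) and -0.07 under vehicle. The calls under ASIV of Ncald (adjusted p up to 0.11, without BTBR ASIV replicate 3) and Fas (0.11, without C57 ASIV replicate 2) were lost without 1 library.

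In all, 3 genes were called in opposite directions in the 2 settings. Rnase4, a secreted ribonuclease, was higher in BTBR under ASIV, with 7.42, 6.84 and 6.99 FPKM in C57 and 10.2, 12.3 and 15.95 in BTBR (0.75, SE 0.15, adjusted p = 0.022), and lower under vehicle (-0.40, adjusted p = 0.048). Pitpnm2, a phosphatidylinositol transfer protein, had 0.43 (SE 0.09) under ASIV and -0.34 under vehicle. Snrpd1, a core protein of the spliceosome, had -0.55 (SE 0.13) under ASIV and 0.41 under vehicle. Their calls under ASIV were lost without 1 library, with adjusted p = 0.095 for Rnase4 without C57 ASIV replicate 2, and 0.11 and 0.17 for Pitpnm2 and Snrpd1 without C57 ASIV replicate 3.

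Called genes lay near each other more often than other tested genes. Of 343 called nuclear genes, 162 (47.2%) had another called gene within 1 Mb, against 33% of 13207 genes that were not called; the median number of tested neighbours was 16 and 17. Chromosome 7 had the highest share of called genes, 5.16% of 1027, with 28 higher and 25 lower. A stretch of chromosome 4 (chr4:147822986-149126763) held 5 called genes of 24 tested: Cort, Mfn2, Fbxo44, Fbxo2 and Zfp933. Fbxo2, a subunit of a ubiquitin ligase that binds glycoproteins, was higher in BTBR, with 85.9, 67.9 and 81.96 FPKM in C57 ASIV and 156, 126 and 160.1 in BTBR ASIV (0.90, SE 0.18, adjusted p = 0.022), and the adjacent Fbxo44 was lower, with 30.8, 30.5 and 34.02 against 24.2, 20.9 and 20.5 (-0.52, SE 0.09, adjusted p = 0.0080). Zfp933, a zinc finger gene, had -0.60 (SE 0.14). The calls of Fbxo2 (adjusted p up to 0.11, without C57 ASIV replicate 2) and Zfp933 (0.16, without C57 ASIV replicate 3) were lost without 1 library. Itpr3, the gene of the tufted allele in the name of the BTBR strain, had 1.17, 0.965 and 0.623 FPKM in C57 ASIV and 0.996, 0.903 and 0.980 in BTBR ASIV and was not called (adjusted p = 0.89).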

How the data were processed

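Gene values are FPKM as computed and deposited by the authors, 1 column per library, with 0 columns of other samples. The submitters' processing notes name mm10 and HISAT2 2.0.5; for the counter, the annotation and the strand of counting the entry is: not given in the sources used here. Of 17283 gene identifiers, 17273 matched GENCODE M21 and 10 did not. Dividing by exon length, the low values of each library were whole multiples of 1 fragment (97.6 to 98.0% of values under 50 fragments, within 0.02), which gave the depth; counting error is therefore known, but reads carry no molecular identifiers.

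Values were analysed as log2(FPKM + 1) for the genes that reached 1 FPKM in at least 3 of 12 libraries, and a log2 difference on this scale understates the change of low genes. limma 3.58.1 in R 4.3.3 (lmFit, eBayes with trend and robust options, 4 group means, 8 residual degrees of freedom) gave differences, standard errors and p-values, adjusted by Benjamini-Hochberg over 13586 genes and called under 0.05. The differences under ASIV and under vehicle share no library. The share of fragments on mitochondrial mRNAs was compared with an exact permutation test. Data were also simulated for 13586 genes from the mean of each gene over all 12 libraries. The noise was normal, with the spread within groups averaged over the 4 groups and over genes of similar level. Changes were put into BTBR ASIV, only at genes with a mean log2(FPKM + 1) above 1.5. Of these genes, 53.7% of those changed 1.5-fold and 100% of those changed 2-fold were recovered, with 8 false calls. Lower genes and single outlying libraries were not part of the simulation. Copies were matched to coding transcripts with blastn 2.17.0 (at least 90% identity over at least 50% of the copy, e-value at most 1e-10). Fragments of a pair are FPKM times exon length, scaled to the recovered depth as CPM. Tables and plots used Python 3.11.15, numpy 2.4.6, pandas 2.3.3 and matplotlib 3.10.9.

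The genes compared and the 45 gene lists were chosen with earlier results of these data known. Named genes are the 12 higher and 12 lower nuclear coding genes with the largest called differences whose groups do not overlap (without Gm, Rik and -ps symbols), up to 6 per direction of other classes, the called genes of each list with the smallest p (up to 4, or up to 2 uncalled ones where none was called), the leading genes of the test against vehicle, and a fixed set that includes the CaMKII and mitochondrial genes; others are said to have been chosen after their values were seen. Some genes that this rule names are not reported here. Alternatives were a pseudocount of 0.1, no filter, FPKM of at least 5, rescaling without mitochondrial genes or by median ratio, quantile normalization, a replicate block, no trend or robust options, voom weights, the 6 ASIV libraries alone and leaving out each library. Leaving out the vehicle libraries for the count under ASIV, or the libraries with more than 10 FPKM of Adora2a, was added after the data were seen.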

Additional observations from a re-analysis of the deposited data

Results flagged for a closer look

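The strain difference under ASIV differed from that under vehicle, by the limma test of the difference itself, at 1939 genes, and at the genes named here with the difference of the differences (ASIV minus vehicle, log2) as the value. A positive value means that BTBR stood higher relative to C57 under ASIV than under vehicle. The part of the low mitochondrial share of the BTBR vehicle libraries in these values was not tested.

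Mitochondrially encoded RNAs had positive values: 4.17 for mt-Nd4, 4.13 for mt-Cytb, 2.88 for mt-Co1, 2.69 for mt-Nd3, 1.26 for mt-Nd6 and 1.15 for mt-Rnr1. Under vehicle these genes were lower in BTBR, by -4.72 at mt-Nd4, and under ASIV only mt-Nd3 was called. Of nuclear genes of complex III, Uqcrq had 1.35 and the assembly factor gene Uqcc2 1.69; of the 14 genes of complexes II and III, 3 had a positive and 6 a negative called value, with a median of -0.29 over the list. The ribosomal protein genes Rpl27 and Rpl31 had 1.73 and 1.59. Atp5e of ATP synthase had -1.24, and the ribosomal protein genes Rpl37a and Rpl11 had -0.70 and -0.58.

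Neuronal and glial genes with positive values were Praf2 (1.94), Syn1 (1.44), Camk2a (0.93), Tuba1a (1.14), Shank3 (0.62), the microglial genes Cd68 (2.05) and P2ry12 (1.87), the amino acid transporter gene Slc7a10 (1.04), Aldoc of astrocytes (0.94) and the clock gene Nr1d1 (1.48). Negative values were found at the interneuron peptide gene Sst (-1.47), Stmn1 (-1.15), Ncald (-0.66), the activity gene Jund (-0.79) and the mitochondrial reductase gene Msrb2 (-1.07). Of the 18 tested microglial markers, 5 had a positive and 2 a negative called value, with a median of 0.20 over the list.

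Of the genes that were apart under ASIV and close or opposite under vehicle, positive values were 1.24 for Mfsd2a, 1.26 for Ucp2, 1.15 for Rnase4, 1.06 for Nt5dc2, 0.79 for Fas, 0.78 for Pitpnm2 and 0.77 for Tcp11l1. Negative values were -2.42 for Ccl27, -0.95 for Snrpd1, -0.88 for Odc1, and, in cholesterol synthesis, -1.06 for Hmgcs1, -0.76 for Msmo1 and -0.72 for Fdft1. Genes called in the same direction under both had smaller or larger strain differences under ASIV, with -1.15 for Epb41l4aos, -0.85 for Fbxo2 and -0.51 for Nudt19. Among the copies the values were 1.52 for Gm6969 against -0.54 for its parent Cox7a2l, -0.73 for Gm7993, -0.77 for Rpl14-ps1 and -0.56 for Morf4l1-ps1.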

How the results depend on the processing

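Of 85 called genes named in the text (Gm4735 not among them), 0 changed direction in any of the alternatives in which they were tested. Of the 85, 34 kept the call in all 6 fits without 1 ASIV library, 58 in all alternatives that kept every library of the comparison, and 29 in every alternative. A gene below the filter of an alternative, such as FPKM of at least 5, was not tested there and was counted as having kept its call. The count of called genes under ASIV (344) was 99 to 460 without 1 ASIV library and 246 to 643 without 1 vehicle library, and 185 without the libraries high in Adora2a. With pseudocount 0.1, no filter, FPKM of at least 5, the other scalings, no trend or robust options, voom or only the 6 ASIV libraries it was 307 to 406. The count for the difference of the differences (1939) was 1166 to 2178 without 1 library and 3168 without the libraries high in Adora2a; that for vehicle was 4542 to 5901. The mitochondrial share difference was -2.12 percentage points of summed FPKM, and -1.262 to -0.502 without 1 ASIV library; the cause was not tested.

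With the replicate block, 415 genes were called under ASIV, 313 of them among the 344, and 1862 for the difference. Same-numbered ASIV libraries correlated at -0.018, 0.197 and 0.169 in their deviations from the group means, against -0.198 to 0.077 for other pairs. The values 0.197 and 0.169 were thus above those of all other pairs. The main fit did not pair the samples by number, and whether the numbers pair them was not tested. Not every library correlated best with its own number. The recovery of 53.7% of 1.5-fold changes in simulated data limits what 3 libraries a group and this depth can show.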
